A study of Mus musculus with 4 samples.

Results

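Ebf1-positive B-lineage cells were a rare population among sorted LSK cells of mouse bone marrow, and 266 of 34320 kept cells (0.775%) belonged to it. A cell was a member when it held at least 1 UMI (1 counted mRNA molecule) of Ebf1 and at least 2 UMIs in all of Cd79a, Vpreb1, Vpreb3, Pax5 and Igll1. Kept cells had at least 500 detected genes, at least 1000 UMIs and at most 10% of UMIs from mitochondrially encoded genes. The members were thus chosen by the counts of these 6 genes, whose levels are given here as a description without a test. LSK cells are a sorted fraction with little lineage antigen and with Sca-1 and Kit on the surface, which holds stem cells and multipotent progenitors. The mice were wild type; the control group received vehicle and the treated group received Yoda1, an opener of the mechanosensitive cation channel Piezo1, intraperitoneally for 2 weeks. Each group had 2 libraries, called control 1, control 2, Yoda1 1 and Yoda1 2, and values are listed in that order. The sources used here did not give strain, age, sort antibodies or the number of mice per library. If libraries of a group were not separate mice, the p-values describe technical spread alone.

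B lymphocytes arise from lymphoid progenitors in bone marrow under a set of transcription factors in which E2A (encoded by Tcf3) and Foxo1 act with Ebf1, and Ebf1 acts with Pax5. Early B cells rearrange the immunoglobulin heavy chain gene with the Rag1 and Rag2 recombinase. They then display the heavy chain with the surrogate light chain, made of the Vpreb and Igll1 proteins, and with the signalling chains Cd79a and Cd79b; this pre-B cell receptor drives a burst of division before light chain rearrangement.

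The sequences below are stretches of 30 bases from RefSeq promoter windows (GRCm38.p6) that hold the E-box CAGGTG, the DNA word bound by E2A. They are shown because the genes they belong to carry the results on the pre-B cell receptor and recombination genes. Each runs 5′ to 3′ on the strand of its gene, and capitals mark the E-box, which reads CACCTG where it lies on the opposite strand.
Cd79a (chr7:24897331-24897360, plus strand): ttgtggccagccCAGGTGcagggcagttcc
Igll1 (chr16:16863976-16864005, minus strand): gctacacagatcCACCTGcactggaatagc
Vpreb1 (chr16:16869326-16869355, minus strand): atgacgttccagCAGGTGcttcctcccaga
Vpreb2 (chr16:17980321-17980350, plus strand): atgactttccagCAGGTGcttcctcccaga
Blnk (chr19:40994364-40994393, minus strand): aacctggcaacaCACCTGatcataaaagag
Rag1 (chr2:101649650-101649679, minus strand): ttcctgaagagcCAGGTGccagctggagct

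The Vpreb1 and Vpreb2 stretches were equal at 29 of 30 bases and differed by G6T, counted from the first printed base with the Vpreb1 base first. Vpreb1 and Vpreb2 are near-identical paralogs, and reads may be split between them, so their separate levels are uncertain. The E-box, searched on both strands, was present in 20.2% of all 32851 promoter windows of 300 bases. Of 68 genes in the B-lineage, pre-B cell receptor, immunoglobulin, recombination and B cell surface lists, 44 had a window, and 18 of these (40.9%) held it. The share over all promoters counts windows, and that of the lists counts genes with a match in any of their windows. The shares are thus in unlike units, here and for the EBF1 site. It was present in the windows of Cd79a, Igll1 and Vpreb1 and not in those of Ebf1, Pax5 and Vpreb3. The palindromic EBF1 site, searched on both strands, was present in 0.904% of all windows and, among the 44 genes, in those of Foxo1 and Cd22. A match is a run of letters and was not shown to be bound, and no match says only that these letters are not in this window.

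The cells were spread very unevenly over the libraries. Control 1 held 18 gated cells among 7620 kept cells, control 2 held 135 among 7822, Yoda1 1 held 6 among 9122 and Yoda1 2 held 107 among 9756. These were shares of 0.236% (exact Clopper-Pearson 95% interval 0.140 to 0.373), 1.73% (1.45 to 2.04), 0.0658% (0.0241 to 0.143) and 1.10% (0.900 to 1.32); intervals cover counting error only. The libraries numbered 2 held 242 of the 266 cells (91.0%), and in neither group did the intervals of its 2 libraries overlap. Shares were 0.981% ± 1.05 (SD, n = 2) in control and 0.581% ± 0.729 (SD, n = 2) after Yoda1. The difference of -0.400 percentage points was smaller than the SD within either group (exact two-sided permutation test, p = 0.667, where the smallest p that 6 arrangements allow is 0.333). Its sign turned when 1 library was left out: it was 0.345 points without control 2 and 0.116 points without Yoda1 1. Il7r Dntt cells, which held at least 1 UMI of each of these genes and lay outside the gate, were also more frequent in the libraries numbered 2, at 2.72%, 5.45%, 3.01% and 5.95%.

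**Figure D1:**
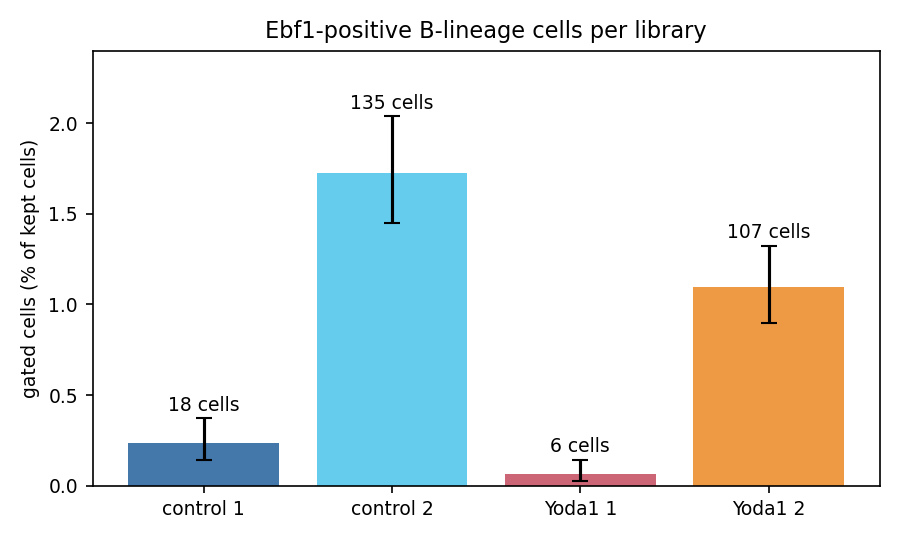
Gated cells as a percentage of kept cells in each library (bars, axis from 0), with exact 95% binomial intervals as error bars and the number of cells above each. Control 2 and Yoda1 2 sit at 1.73% and 1.10%, above control 1 at 0.236% and Yoda1 1 at 0.0658%.

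The gated cells held 250689, 1523875, 78380 and 1663964 UMIs in all, and the depth per cell, with medians of 12704, 9840, 12303.5 and 13765 UMIs, was above that of the other kept cells (11214.5, 9394, 10183.5 and 7275). Between 8 and 26 cell barcodes were shared by any pair of libraries, and 0 of them were gated in both.

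The 6 gated cells of Yoda1 1 stood apart. The defining genes were lower in them than in the gated cells of the other libraries, so their label is less sure. The summed UMIs of the 5 genes beside Ebf1 had medians of 88.5, 66 and 77 in control 1, control 2 and Yoda1 2, but 3.5 in Yoda1 1. Median Ebf1 UMIs per cell were 27, 23, 4.5 and 22. When every cell was thinned to 3000 UMIs before gating, 1 cell of Yoda1 1 remained. Values of this library are therefore described as those of 6 cells, and calls are also given without it.

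Levels of the gate genes are in CPM, the UMIs of a gene per 1000000 UMIs of the summed cells. Ebf1 (chr11:44617317-45008091, GRCm38, GENCODE M21), the transcription factor that commits cells to the B lineage, measured 1787, 2232, 498 and 1541 CPM in gated cells. Pax5 (chr4:44524757-44710487), which holds that commitment, measured 207, 181, 89.3 and 119 CPM. Both were lowest in Yoda1 1. Cd79a (chr7:24897381-24902197), the signalling chain Igα, measured 1647, 1532, 204 and 1392 CPM. Vpreb1 (chr16:16868403-16870843), a part of the surrogate light chain, measured 1352, 1706, 76.6 and 1319 CPM. Igll1 (chr16:16860671-16863985), its λ5 partner, measured 1189, 1089, 25.5 and 992 CPM. Vpreb3 (chr10:75943057-75949657) measured 1620, 1803, 51.0 and 1220 CPM. For Cd79a, Vpreb1, Igll1 and Vpreb3 the levels of control 1, control 2 and Yoda1 2 lay together and those of Yoda1 1 far below.

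Few cells lay near the threshold of the summed genes. With a sum of exactly 2 UMIs, just inside it, there were 5 cells, and with a sum of 1, just outside it, 37 cells. A further 281 kept cells had Ebf1 and a sum of 0, and 224 of them had exactly 1 Ebf1 UMI. Only 18 of the 266 gated cells had a sum under 10. Kept cells without Ebf1 but with a sum of at least 2 numbered 121; their summed Igkc level was 14910 CPM, carried by 16 cells with an Igkc UMI, against 228 CPM in the gated cells with a sum under 10 and 103 CPM in the rest of the gated cells.

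The gate itself set how often its genes were detected, so these shares describe the members and do not check their label. Of gated cells, 97.7% (exact 95% interval 95.2 to 99.2) had a Cd79a UMI, 91.7% (87.8 to 94.7) a Vpreb1 UMI, 92.5% (88.6 to 95.4) a Vpreb3 UMI and 72.9% (67.2 to 78.2) a Pax5 UMI. In cells with UMIs of Gata1 and Klf1, genes of red cell precursors, which should lack these transcripts, the shares were 0.500%, 5.73%, 0.433% and 0.0999%, at higher depth (medians of 15936 to 18169.5 UMIs by library). Markers of later B cells were scarce: Ms4a1, which encodes CD20, had a UMI in 6 gated cells and Igkc, the kappa light chain, at least 3 UMIs in 15. Iglc1, Iglc2 or Iglc3, the lambda light chains, had UMIs in 7 gated cells, all of Yoda1 2.

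The mRNAs of the sort markers were detected in a minority of the gated cells. Kit, the stem cell factor receptor, had a UMI in 90 of 266 cells (33.8%, exact 95% interval 28.2 to 39.9). Kit and Ly6a, which encodes Sca-1, were both detected in 53 cells (19.9%, 15.3 to 25.2), and neither in 104 (39.1%, 33.2 to 45.2). A UMI count does not measure the surface protein on which cells were sorted.

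To see what set these cells apart from nearby lymphoid progenitors, they were compared with the 1488 Il7r Dntt cells. Il7r is the receptor for interleukin 7 and Dntt the polymerase that adds bases to recombined antigen receptor genes, so these cells carry lymphoid transcripts without the B-lineage gate. Counts were summed per library and population and tested with edgeR's quasi-likelihood test, with the library as a block. The 6 gate genes and Il7r and Dntt, which define the populations, were not tested. Genes transcribed together with the gate genes are no independent evidence of the cells' identity. Of 10154 genes tested, 930 were higher in gated cells (9.16%) and 1209 lower (11.9%) at an adjusted p under 0.05. Without Yoda1 1 these numbers were 1977 and 1715, without control 2 they were 230 and 317, and without Yoda1 2 they were 264 and 401.

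**Figure D2:**
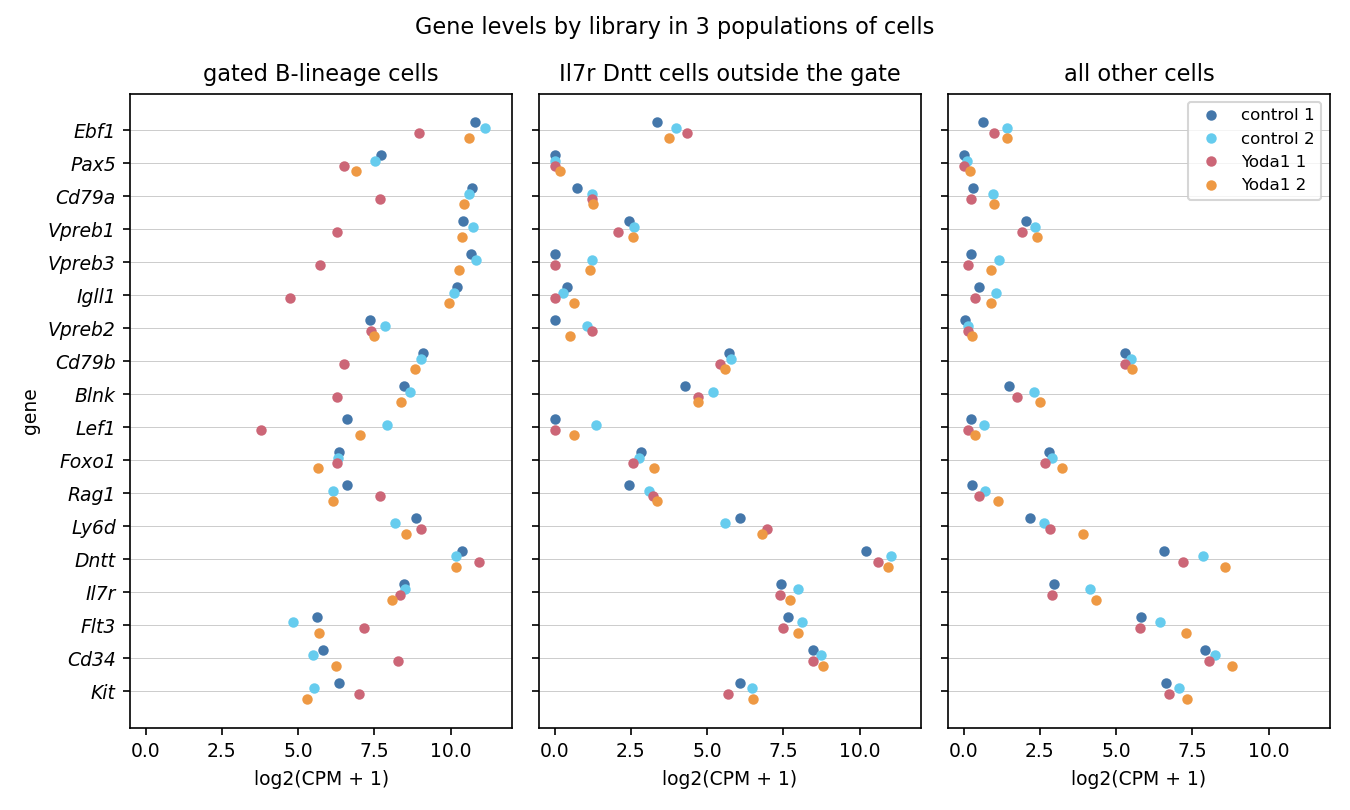
Levels of 18 genes as log2(CPM + 1) (x axis) in gated cells, Il7r Dntt cells and all other cells, 1 point per library. The surrogate light chain genes Vpreb1 and Igll1 reach 1706 and 1189 CPM in gated cells and stay at or below 5.09 CPM in the Il7r Dntt cells, and Yoda1 1 lies lowest of the 4 libraries for both.

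Among the B-lineage transcription factors, 13 of 18 could be tested. Of these, 5 were higher in gated cells, 3 were lower and 5 did not pass, where 9.16% of all genes tested were higher and 11.9% lower. The median log2 fold change of the 13 was 0.15, against -0.05 over all genes tested. Lef1 and Pou2af1, near 0 in Il7r Dntt cells, passed the filter on low counts through the gated cells, which fixed their side. Tcf3, which encodes E2A, measured 279, 272, 115 and 234 CPM in gated cells and 100, 86.5, 74.2 and 99.3 CPM in Il7r Dntt cells. The groups did not overlap, and the log2 fold change was 1.44 ± 0.19 (SE; adjusted p = 1.63e-06). Foxo1, a factor upstream of the recombinase genes, measured 79.8, 77.4, 76.6 and 49.3 CPM against 6.09, 5.75, 4.88 and 8.58 CPM. Its log2 fold change was 3.34 ± 0.23 (adjusted p = 8e-12). The level in Yoda1 1 was near that of the other libraries but rests on 6 UMIs in 3 cells.

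Lef1 (chr3:131110471-131224356), a factor of Wnt signalling expressed in dividing early B cells, measured 95.7, 239, 12.8 and 130 CPM against 0, 1.55, 0 and 0.553 CPM. Its log2 fold change was 7.87 ± 0.27 (adjusted p = 6.45e-19), and in Yoda1 1 the level of 12.8 CPM is 1 UMI. Bach2, a repressor in B cells, was higher by 1.47 ± 0.18 on the log2 scale. Pou2af1, a B cell co-activator of octamer factors, measured 132, 125, 25.5 and 98.6 CPM against 0, 0.221, 0 and 0 CPM. The members that were lower were Irf8, Spi1 and Sox4, with log2 fold changes of -0.82 ± 0.20, -0.69 ± 0.18 and -0.87 ± 0.19. Spi1 encodes PU.1, which acts in myeloid and early lymphoid cells; its levels in gated cells were 99.7, 86.6, 140 and 76.3 CPM, against 187, 154, 157 and 137 CPM, and Yoda1 1 overlapped the comparison cells. Without Yoda1 1, 8 of 15 tested members were higher and 4 lower. The count of higher members has the limit given for Lef1 and Pou2af1.

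Of the 12 genes of the pre-B cell receptor and its signalling, 4 belonged to the gate and 8 were tested. Of these, 4 were higher, none was lower and 4 did not pass, where 9.16% of all genes tested were higher. Vpreb2 and Blk, near 0 in Il7r Dntt cells, passed the filter on low counts through the gated cells, which fixed their side. Vpreb2 (chr16:17980428-17981273) measured 164, 228, 166 and 178 CPM in gated cells and 0, 1.11, 1.35 and 0.415 CPM in Il7r Dntt cells (log2 fold change 8.13 ± 0.27, adjusted p = 6.45e-19). Its level in the 6 cells of Yoda1 1 rests on 13 UMIs in 3 cells, and that of its paralog Vpreb1 on 6 UMIs in 4 cells. Since reads may be split between the paralogs, no contrast between them is drawn. Cd79b, the Igβ chain, measured 546, 522, 89.3 and 456 CPM against 52.1, 54.4, 42.0 and 47.4 CPM (log2 fold change 3.12 ± 0.25). Blnk (chr19:40928927-40994535), the adaptor that couples the receptor to its kinases, measured 351, 403, 76.6 and 332 CPM against 18.3, 35.4, 24.9 and 24.8 CPM (log2 fold change 3.64 ± 0.25). Blk, a Src family kinase of B cells, measured 91.8, 26.9, 51.0 and 26.4 CPM against at most 2.03 CPM. The kinases Syk, Btk and Lyn and the phospholipase Plcg2 did not pass; their log2 fold changes lay between 0.16 and 0.34. Without Yoda1 1, 6 of the 8 passed, a count with the limit given for Vpreb2 and Blk.

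Of 8 immunoglobulin constant genes 4 were tested and the other 4 had too few counts; Ighg2b and Igkc, near 0 in Il7r Dntt cells, passed the filter on low counts through the gated cells, so a count of genes that were higher is not given. Ighm (chr12:113418558-113422730), the heavy chain constant gene of IgM, measured 1253, 927, 612 and 884 CPM against 417, 541, 427 and 414 CPM (log2 fold change 1.06 ± 0.20, adjusted p = 2.16e-04). Ighg2b (chr12:113302965-113307933), the constant gene of IgG2b, measured 463, 236, 38.3 and 243 CPM against 0.338, 1.55, 0 and 0.553 CPM (log2 fold change 8.59 ± 0.29). It was detected in 56.8% (50.6 to 62.8) of gated cells and in 0.0333% of Gata1 Klf1 cells. The counts do not separate transcripts of a rearranged gene from those of an unrearranged one. Igkc measured 55.9, 31.5, 0 and 194 CPM against 0, 3.76, 2.17 and 8.99 CPM.

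Of the 11 recombination genes 9 were tested. Among the 9, 3 were higher, none was lower and 6 did not pass, where 9.16% of all genes tested were higher. Rag1 (chr2:101638282-101649501) measured 95.7, 70.2, 204 and 69.7 CPM in gated cells and 4.40, 7.53, 8.40 and 9.13 CPM in Il7r Dntt cells. Its log2 fold change was 3.54 ± 0.22 (adjusted p = 6.89e-13), and its highest level was in the 6 cells of Yoda1 1. Rag2, its partner, measured 47.9, 61.7, 12.8 and 65.5 CPM against 23.3, 31.7, 30.6 and 30.6 CPM (log2 fold change 1.08 ± 0.19), and the groups overlapped through Yoda1 1. The third was Hmgb1, a DNA-bending protein that assists the recombinase and is abundant in dividing cells, at 1.14 ± 0.21. The end-joining genes Xrcc5, Xrcc6, Prkdc, Dclre1c, Xrcc4 and Nhej1 did not pass. Dntt, used to define the comparison cells, measured 1308, 1157, 1927 and 1154 CPM in gated cells and between 1180 and 2068 CPM in those.

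Among 19 B cell surface genes 8 were tested. Of the 8, 4 were higher, none was lower and 4 did not pass, where 9.16% of all genes tested were higher. The count of higher genes has the limit given for S1pr1 below. Ly6d, a surface protein of B-biased lymphoid progenitors, measured 459, 290, 523 and 371 CPM against 67.0, 47.4, 123 and 111 CPM (log2 fold change 2.34 ± 0.20, adjusted p = 7.96e-10). Cd24a, the heat-stable antigen of early B cells, measured 690, 499, 485 and 474 CPM against 162, 150, 114 and 138 CPM (log2 fold change 1.96 ± 0.18). In both genes every gated library lay above every Il7r Dntt library, Yoda1 1 included. Cd37, a tetraspanin, and S1pr1, a receptor for egress from marrow, were the other members that passed.

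**Figure D3:**
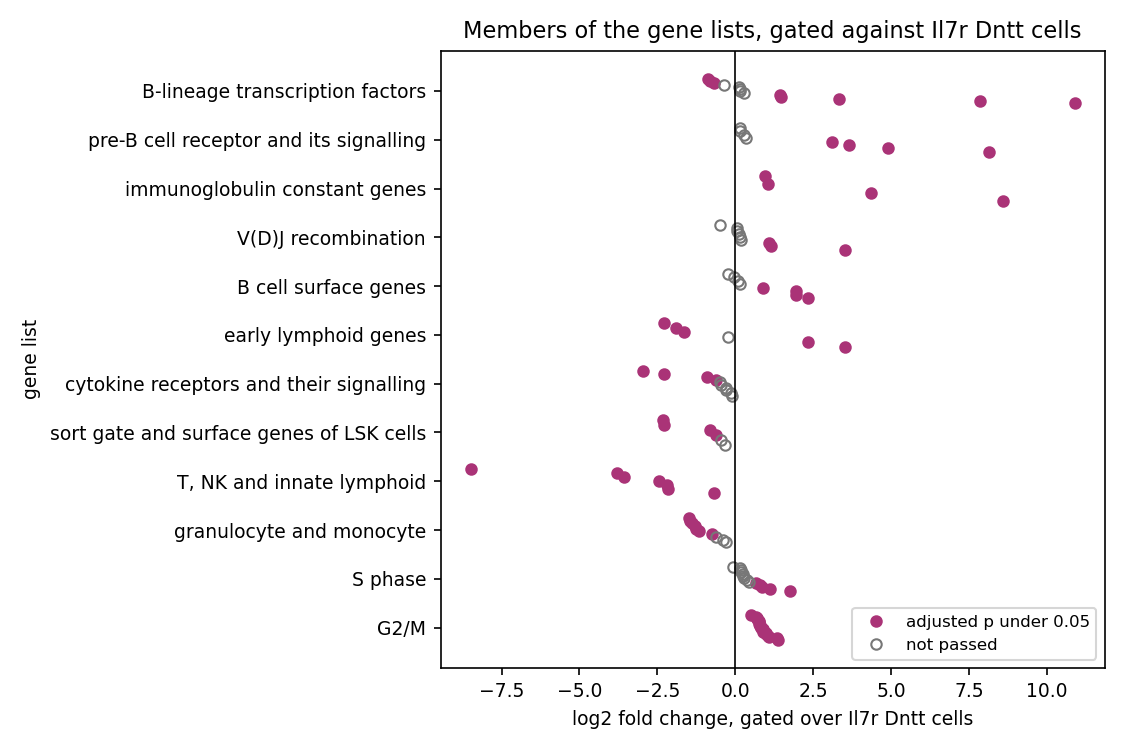
Log2 fold change of each tested list member, gated over Il7r Dntt cells (x axis), by gene list (y axis); filled points passed at an adjusted p under 0.05 and open points did not; where a gene is at 0 in 1 population the plotted value is set by the fit. All 19 G2/M genes lie above 0; T, NK and innate lymphoid genes near 0 in gated cells entered the test through the Il7r Dntt cells, which fixes their side.

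Of the receptors of earlier progenitors, Flt3 was lower in the gated cells of every library and Kit in those of control 2 and Yoda1 2. Of 11 cytokine receptor and signalling genes 10 were tested. None was higher, 4 were lower and 6 did not pass, where 11.9% of all genes tested were lower. Flt3 (chr5:147330741-147400489), the receptor of multipotent and lymphoid progenitors, measured 47.9, 27.6, 140 and 50.5 CPM in gated cells and 201, 277, 177 and 249 CPM in Il7r Dntt cells. Its log2 fold change was -2.29 ± 0.26 (adjusted p = 1.22e-07), and Yoda1 1 was the closest to the comparison cells. Kit measured 79.8, 44.6, 128 and 37.9 CPM against 67.0, 87.6, 50.1 and 89.1 CPM. The Kit groups overlapped; the fit gave -0.62 ± 0.21 (adjusted p = 0.0381), a fold change carried by control 2 and Yoda1 2. Il2rg, the common gamma chain, and Csf1r, the macrophage receptor, were the other members that were lower. Csf1r had a UMI in 4 gated cells and passed the filter on low counts through the Il7r Dntt cells. Jak1, Jak3, Stat5a and Stat5b, which signal from the interleukin 7 receptor, did not pass. Under DESeq2 2 of these 10 genes were lower, 2 without Yoda1 2 and 1 without control 2.

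Early lymphoid genes moved in both directions: of 9, 6 were tested, 2 were higher (Rag1 and Ly6d, described above), 3 were lower and 1 did not pass. Over all genes tested 9.16% were higher and 11.9% lower, shares that also stand beside the sort-gate and stem cell counts below. The 3 lower genes were Flt3, the chromatin organizer Satb1 and the receptor Notch1. Satb1 measured 71.8, 57.1, 255 and 77.5 CPM against 238, 331, 228 and 266 CPM (log2 fold change -1.63 ± 0.25). Notch1, which directs progenitors to the T lineage, measured 39.9, 26.3, 115 and 38.5 CPM against 108, 170, 122 and 150 CPM (log2 fold change -1.89 ± 0.23). In Yoda1 1 both levels lay close to those of the Il7r Dntt cells. Of the 7 sort-gate and LSK surface genes 6 were tested and 4 were lower, Kit, Cd34, Ptprc and Flt3; 2 were lower under DESeq2 and when control 2 or Yoda1 2 was left out. Of 5 stem cell genes tested out of 7, 3 were lower, and 1 under DESeq2. Mecom, among the 3, had few counts in gated cells and passed the filter on low counts through the Il7r Dntt cells.

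Of 11 T, NK and innate lymphoid genes 7 were tested. Most of these, Tcf7, Gata3, Bcl11b, Klrd1 and Zbtb16 among them, had few counts in gated cells and passed the filter on low counts through the Il7r Dntt cells, so their number and direction say nothing about the list. Tcf7, a T cell factor, measured 0, 3.94, 0 and 0.601 CPM against 32.5, 35.4, 5.42 and 25.2 CPM (log2 fold change -3.78 ± 0.41). Gata3, which acts in T and innate lymphoid cells, measured 0, 0.656, 0 and 1.80 CPM against 20.3, 17.0, 5.42 and 12.4 CPM (log2 fold change -3.58 ± 0.53). Nkg7, a granule protein of NK cells that progenitors also express, had a UMI in 48.1% of gated cells and measured 132, 121, 319 and 105 CPM, against 316, 229, 204 and 212 CPM; in Yoda1 1 it lay above the Il7r Dntt cells. The plasma cell gene Jchain was at 0 in gated cells of control 1, control 2 and Yoda1 1 and at 0.601 CPM in Yoda1 2.

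The largest fold changes included genes outside the lists. Among genes with at least 100 CPM in the higher population, as the mean of the 4 libraries' CPM, and the same direction in all 4, the 10 most strongly higher were Ighg2b, Vpreb2, Lef1, Cecr2, Chchd10, Arl5c, Bfsp2, Slamf6, Blnk and Rag1. Pou2af1, with a larger fitted fold change, fell under that mean through its low level in Yoda1 1. Cecr2, a chromatin remodelling factor, measured 160, 143, 25.5 and 120 CPM against at most 1.02 CPM. It passed the filter on low counts through the gated cells, which fixed its side. Chchd10, a mitochondrial protein, measured 1284, 1268, 357 and 1102 CPM against 50.1, 43.4, 42.0 and 45.4 CPM (log2 fold change 4.47 ± 0.27). Bfsp2, a lens filament protein, measured 742, 589, 179 and 746 CPM against 20.3, 33.9, 27.4 and 37.8 CPM (log2 fold change 4.28 ± 0.28). Slamf6, a SLAM family receptor, measured 164, 139, 51.0 and 105 CPM against 4.06 to 10.8 CPM. In these 4 genes the 6 cells of Yoda1 1 lay between the 2 populations.

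The 10 most strongly lower were Wfdc17, Cox6a2, Bex6, Cd27, Cd34, Flt3, Bcl2, Tyrobp, Gcnt2 and Adgrl4. Bcl2, which protects from cell death, measured 51.9, 28.2, 115 and 31.9 CPM in gated cells and 215, 222, 180 and 160 CPM in Il7r Dntt cells (log2 fold change -2.24 ± 0.23, adjusted p = 2.24e-08). Cd27, a TNF receptor family member of lymphoid progenitors, measured 31.9, 28.9, 153 and 50.5 CPM against 221, 257, 188 and 264 CPM (log2 fold change -2.36 ± 0.25). For both, every gated library lay below every Il7r Dntt library, with Yoda1 1 the highest of the gated ones. Wfdc17, a secreted protease inhibitor, measured 3.99, 20.3, 12.8 and 37.9 CPM against 236, 351, 207 and 247 CPM (log2 fold change -3.41 ± 0.27).

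The gated cells carried more transcripts of dividing cells. All 19 G2/M genes were higher than in Il7r Dntt cells, with a median log2 fold change of 0.84. Over all genes tested 9.16% were higher, a share that also stands beside the S phase count below. Mki67, the proliferation antigen, measured 762, 660, 651 and 594 CPM against 370, 325, 384 and 409 CPM (log2 fold change 0.88 ± 0.18, adjusted p = 7.47e-04). Ccnb1, cyclin B1, measured 255, 244, 89.3 and 247 CPM against 105, 95.6, 107 and 79.0 CPM (log2 fold change 1.34 ± 0.21). Of 14 S phase genes 5 were higher, Pcna, Tyms, Rrm2, Gins2 and Uhrf1, and 9 did not pass, the Mcm helicase genes among them. Ccnd3, the cyclin used by the pre-B cell receptor, measured 1352, 919, 166 and 989 CPM against 136, 132, 128 and 160 CPM (log2 fold change 2.58 ± 0.29, adjusted p = 1.19e-07); it was chosen after its values were seen. The number of G2/M genes that passed was 16 under DESeq2, 6 without control 2, 8 without Yoda1 2, 14 without control 1 and 19 without Yoda1 1. For S phase it was 0 under DESeq2, 1, 2 and 3 without control 2, Yoda1 2 and control 1, and 12 without Yoda1 1.

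Counted per cell, G2/M transcripts were present in most members of 3 libraries. After thinning to 3000 UMIs, cells with at least 3 UMIs of the 19 G2/M genes made up 100% (18 of 18 cells, exact 95% interval 81.5 to 100), 92.5% (111 of 120, 86.2 to 96.5), 50% (3 of 6, 11.8 to 88.2) and 89.4% (93 of 104, 81.9 to 94.6) of gated cells. In Il7r Dntt cells the shares were 61.7%, 39.6%, 61.8% and 55.3%, and in all other cells 53.7%, 40.3%, 53.5% and 31.7%. Thinning left out 0, 15, 0 and 3 gated cells as too shallow. Each of these had at most 10.0 G2/M UMIs per 10000 UMIs, so leaving them out was not neutral. Unthinned, the shares were 100%, 87.4%, 50% and 90.7% in gated cells and 77.3%, 55.9%, 79.3% and 68.6% in Il7r Dntt cells. The unthinned gated shares had a Yoda1 minus control difference of -23.4 points. Thinned, that difference was -26.5 points (96.3% ± 5.30 against 69.7% ± 27.9, SD, n = 2 each; exact two-sided permutation test, p = 0.333, the smallest possible). Without Yoda1 1 it was -6.83 points, so its size rests on 6 cells. The median cell had 63.6, 52.2, 13.7 and 48.1 G2/M UMIs per 10000 UMIs, against 18.9, 3.70, 20.1 and 12.9 in Il7r Dntt cells. Free RNA can add UMIs to any cell, and its part in these shares was not tested.

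**Figure D4:**
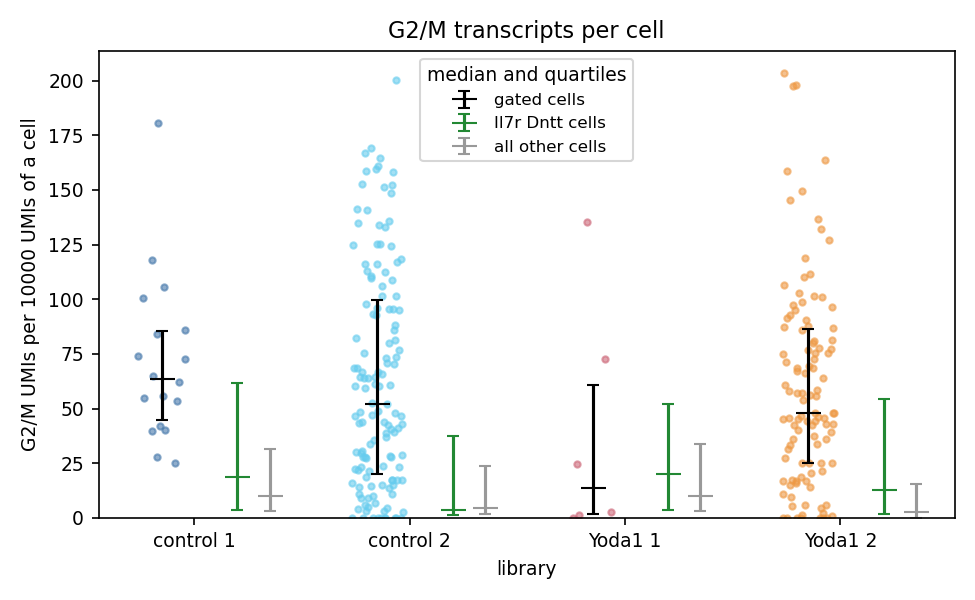
G2/M UMIs per 10000 UMIs in each gated cell (points), with the median and quartiles of gated, Il7r Dntt and all other cells per library. The gated medians of control 1, control 2 and Yoda1 2 are 63.6, 52.2 and 48.1, and that of Yoda1 1 is 13.7.

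To place the gated cells beside Il7r Dntt cells that already carried Ebf1, lymphoid cells were divided into 3 sets: Il7r Dntt cells with Ebf1 at 0, Il7r Dntt cells with Ebf1, and gated cells. This is a description with no test, and it is given first for control 2 (382, 44 and 135 cells) and Yoda1 2 (526, 54 and 107 cells), the libraries with at least 50 gated cells. Median depths were 9680, 8401 and 9840 UMIs in control 2 and 11158, 12351.5 and 13765 UMIs in Yoda1 2. Flt3 measured 272, 329 and 27.6 CPM across the 3 sets of control 2 and 253, 210 and 50.5 CPM across those of Yoda1 2. Cd34, a surface protein of early progenitors, measured 432, 379 and 44.0 CPM and 446, 410 and 73.9 CPM. For both genes the Il7r Dntt cells with Ebf1 lay near those without it, and the gated cells far below.

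Rag1 measured 6.38, 18.1 and 70.2 CPM in the 3 sets of control 2, and 6.05, 34.6 and 69.7 CPM in those of Yoda1 2. Ly6d measured 41.5, 102 and 290 CPM, and 85.3, 322 and 371 CPM. Both genes thus had a level in Il7r Dntt cells with Ebf1 that lay between those of the other sets. In the libraries numbered 1, which held 12 and 39 Il7r Dntt cells with Ebf1, Rag1 in these cells was also between, at 39.0 and 32.5 CPM, while Ly6d at 644 and 578 CPM was above the gated cells. Blnk measured 30.2, 83.9 and 403 CPM in control 2 and 22.3, 44.8 and 332 CPM in Yoda1 2. Lef1 was at 0 in Il7r Dntt cells with Ebf1 of both libraries and at 239 and 130 CPM in gated cells.

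**Figure D5:**
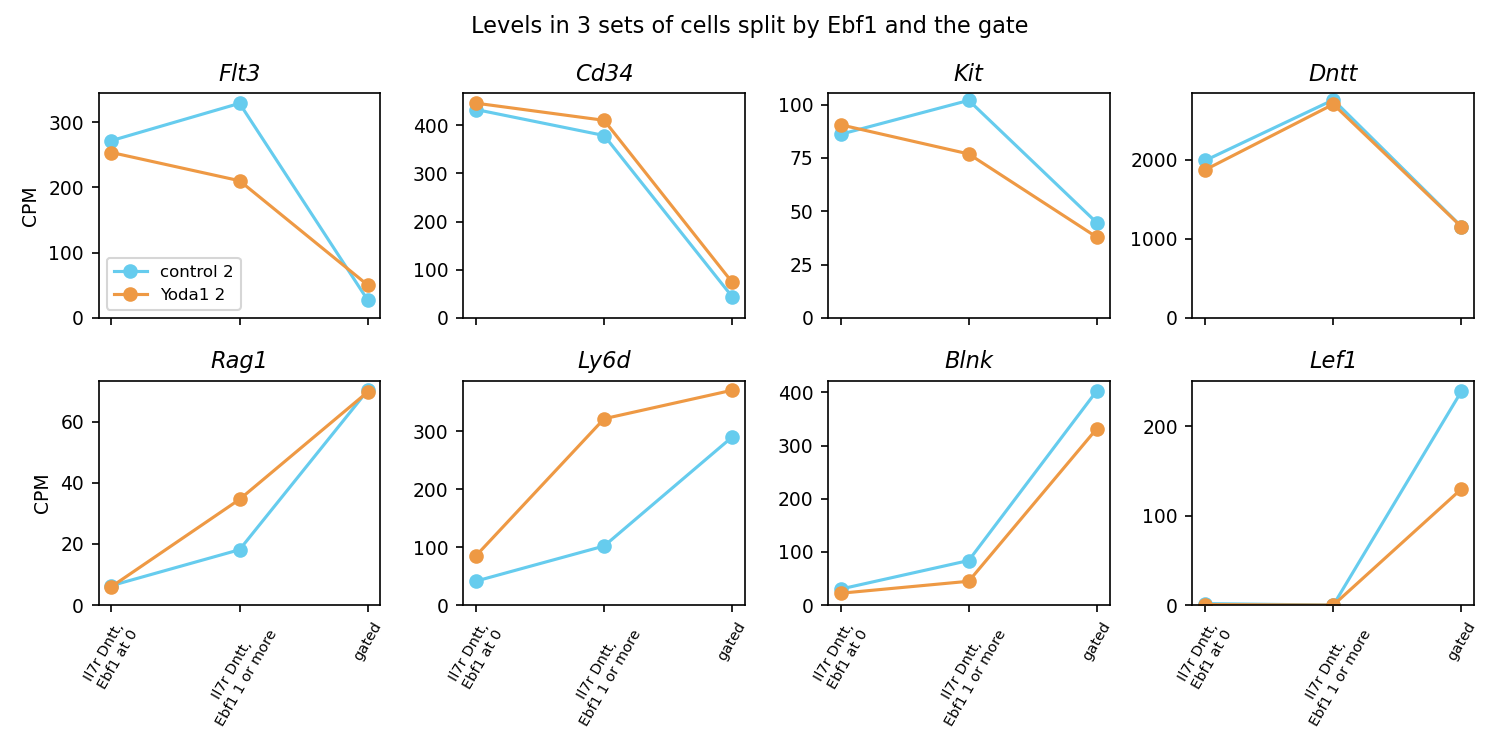
CPM of 8 genes (y axes, each from 0) in 3 sets of cells split by Ebf1 and the gate, in control 2 and Yoda1 2. Flt3 is at 329 and 210 CPM in Il7r Dntt cells with Ebf1 and at 27.6 and 50.5 CPM in gated cells, and Rag1 is highest in gated cells, at 70.2 and 69.7 CPM.

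Against all other 34054 kept cells, 960 of 15543 genes tested were higher in gated cells (6.18%) and 1858 lower (12%). Without Yoda1 1 these were 1404 and 2033, without control 2 they were 389 and 385, and without Yoda1 2 they were 559 and 725. The 10 most strongly higher genes were Ighg2b, Vpreb2, Lef1, Cecr2, Rag1, Blnk, Bfsp2, Ly6d, Slamf6 and Arl5c. Ighg2b, Vpreb2, Lef1 and Cecr2 were at or below 0.594 CPM in the other cells. They passed the filter on low counts through the gated cells, which fixed their side. The 10 most strongly lower were Prss34, Elane, Ctsg, Prtn3, Wfdc17, Ly6c2, Mpo, Ms4a3, Tyrobp and Ms4a6c. Of 12 granulocyte and monocyte genes 11 were lower and 1 did not pass; Mpo, myeloperoxidase, measured 327, 604, 383 and 90.8 CPM against 3429, 2459, 2319 and 665 CPM. All 10 megakaryocyte and erythroid genes and all 7 stem cell genes were lower, but 5 and 3 of them without control 2, and 4 of the stem cell genes under DESeq2. Members with few counts in gated cells, Cebpe, Hba-a1, Epor and Fgd5 among them, passed the filter on low counts through the other cells. The filter thus partly set how many genes of these lists were lower. Of 7 MHC class II genes 5 were lower and none was higher. Cd74, H2-Aa and H2-Eb1, which mature B cells express, were among the 5 (3 of 7 genes lower under DESeq2, 2 without control 2). Yet Cd74 had a UMI in 38.9%, 17.0%, 33.3% and 19.6% of gated cells, and in at most 16.6% of other cells in any library. H2-Aa was also detected more often in gated cells, except in control 2. H2-Eb1 was so only in the Yoda1 libraries, H2-DMb1 only in Yoda1 1 and H2-DMa in none. In Yoda1 1 the CPM of Cd74, H2-Aa and H2-DMa lay above that of the other cells. Depth per cell, higher in gated cells, was not matched for these shares. Against Il7r Dntt cells Cd74, H2-Aa and H2-Eb1 did not pass, H2-Ab1 was higher, and H2-DMa and H2-DMb1 were lower.

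Some gated cells were rich in transcripts of other lineages. In 2, 10, 1 and 3 gated cells Mpo, Elane, Ctsg and Prtn3 together had at least 20 UMIs, and in 2 cells of Yoda1 2 the platelet factor gene Pf4 had at least 10. Without these 18 cells the summed level of the 4 granule genes went from 945, 2209, 829 and 255 CPM to 840, 383, 675 and 187 CPM. Only in control 2 did these cells hold most of the granule transcripts; in the other libraries most lay in the remaining gated cells. No doublet caller was run. Without these cells 912 genes were higher and 1274 lower than in Il7r Dntt cells, a setting added after the data were seen.

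The comparison of Yoda1 with control within the gated cells asked whether treatment changed their transcripts. No gene of 8077 tested passed edgeR's quasi-likelihood test (0%), 91 had an unadjusted p under 0.05 (55 higher and 36 lower after Yoda1), and DESeq2 likewise called 0, with 31 under 0.05. Tcf3, Cd79b and Blnk had log2 differences of -0.47, -0.72 and -0.61, and Rag1 and Ly6d of 0.29 and 0.20. In the pair with enough cells, control 2 and Yoda1 2, the levels were 272 and 234 CPM for Tcf3, 403 and 332 CPM for Blnk and 70.2 and 69.7 CPM for Rag1. In the same pair Lef1 was at 239 and 130 CPM, Igkc at 31.5 and 194 CPM, Cd74 at 26.9 and 149 CPM and the interferon-induced gene Ifi27l2a at 747 and 148 CPM. Igkc was detected in 10.4% and 23.4% of these gated cells and Cd74 in 17.0% and 19.6%, so a minority of cells carried both. Ifi27l2a also differed in the Il7r Dntt cells with Ebf1 at 0, at 417 CPM in control 2 and 127 CPM in Yoda1 2. The treated group includes the 6 cells of Yoda1 1, and treatment and the identity of these cells cannot be told apart. Without Yoda1 1, 32 genes passed, and 197 passed without Yoda1 2, in each case with 1 library standing for a group and assumed to vary like the other group.

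The genes with the smallest unadjusted p on the higher side were Pf4, Ifitm1, H2-DMa, Ctla2a and Emb, and on the lower side Elane, Ctsg, Prtn3, Apoe and Gsn. Pf4 measured 51.9, 31.5, 89.3 and 908 CPM (log2 fold change 3.94 ± 0.72, adjusted p = 0.387); Yoda1 2 measured 8.90 CPM without its 2 cells rich in Pf4. Ifitm1, an interferon-induced membrane protein, measured 156, 108, 817 and 214 CPM (adjusted p = 0.9996), with Yoda1 1 the highest. Isg15, another interferon-induced gene, was also highest in that library: it measured 112, 40.0, 281 and 24.6 CPM in gated cells and 87.0, 47.5, 357 and 40.6 CPM in all other cells. Elane, neutrophil elastase, measured 223, 646, 102 and 28.2 CPM in gated cells (log2 fold change -3.55 ± 0.61, adjusted p = 0.387) and 2413, 2473, 1595 and 523 CPM in all other cells, where it was also lower in both Yoda1 libraries. Without the cells rich in granule or Pf4 transcripts its log2 fold change was -1.95 (adjusted p = 0.9998). Piezo1, the target of Yoda1, measured 19.9, 18.4, 38.3 and 12.6 CPM in gated cells, and its log2 difference was -0.28.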

How the data were processed

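Single-cell RNA-seq was measured in 4 libraries of LSK cells, grouped by the treatment label. The deposited matrices hold raw counts of UMIs per gene and barcode, written by Cell Ranger 7.1.0 per the file headers; the submitters' processing notes also list Seurat 4.3.0 and GRCm38 (mm10). The platform is uncertain, since the labels mention 10x Genomics as well as a Singleron microwell chip; the annotation release is not given in the sources used here. Barcode and feature files hold names only. Gene positions came from GENCODE M21 (52081 of 55357 identifiers matched, 94.1%) and promoters from RefSeq.

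The members, gene lists and tests were chosen with earlier results of these data known. UMIs were summed per library and population, and tested in R 4.3.3 by the quasi-likelihood test of edgeR 4.0.16, after filterByExpr and TMM scaling, with a Benjamini-Hochberg adjusted p under 0.05 as a call; SE is the absolute log2 fold change divided by the square root of F. Treatment was fitted over 4 libraries without a block, and populations with the library as a block. The tests were tried on simulated data. Named genes were members of the B-lineage, lymphoid and sort-gate lists, the 10 with the largest fold change each way (adjusted p under 0.05, at the same sign in 4 libraries) or, for treatment, the 5 with the smallest unadjusted p each way, in each case among genes with at least 100 CPM as a mean over the 4 libraries, in the higher population or, for treatment, in gated cells; predicted, mitochondrial and ribosomal symbols were left out. Other list members were chosen after their values were seen. Alternatives were DESeq2 1.42.0, RLE scaling, all genes without the low-count filter, a harder cell filter (1000 genes or more, mitochondrial share up to 5%), every barcode, stricter gates, thinning, leaving out the top 5% of UMIs, cells rich in other lineages' transcripts or single libraries, and a replicate block. The kept cells held 89058521 to 110493533 UMIs per library. No doublet caller was run. The values of 1 list member are not reported here.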

Additional observations from a re-analysis of the deposited data

How the results depend on the processing

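The difference in the share of gated cells kept its sign under the other cell filters, gates and thinning (-0.419 to -0.340 points) and ranged from -1.145 to 0.345 points when each library was left out. The cycling difference ranged from -46.3 to -6.83 points without each library. For treatment, 16 genes passed without a filter on low counts, 2 with the top 5% of UMIs left out, and 1 to 197 without each library. Against Il7r Dntt cells 2139 genes passed, 757 under DESeq2, 4182 in the libraries with at least 50 gated cells, and 547 to 3692 without each library. Against all other cells 2818 passed, 1165 under DESeq2 and 774 to 3437 without each library; the cause of these shifts was not tested. The 20 genes named by fold change in each of these comparisons kept direction and call in all 260 and 240 values under the alternatives. They were chosen from the same data by call, large fold change and a shared direction in every library, so this was partly built into the choice. For treatment, Pf4 reversed to -1.02 on the log2 scale with the top 5% of UMIs left out and to -1.14 without the granule and Pf4 cells, and 21 of 120 values newly passed, in the settings without a filter, without the top 5% of UMIs or without a library. Pairing rests on shared numbers alone, with 2 pairs: with the replicate block 0 genes passed for treatment, the share difference was -0.400 points (-0.170 and -0.629 in the pairs; exact sign-flip permutation p = 0.500) and the cycling difference -26.5 points (negative in both pairs; p = 0.500), where 0.500 is the smallest p that 2 pairs allow. For treatment in the 2 libraries with at least 50 gated cells, values alone are given. The 6 cells and 78380 UMIs of Yoda1 1 limit every treatment value.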
